A study of Mus musculus with 5 samples.

Results

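The 9 genes described here, Slc17a7, Slc17a6, Neurod1, Neurod2, Neurod6, Tbr1, Emx1, Cux2 and Nrn1, mark glutamatergic neurons, most of them of the pallium, and were chosen by name from the 15093 genes measured in ribosome-bound RNA of central amygdala (CeA) Drd2 neurons. All 9 were found, under identifiers that a reference table pairs with the same symbols. The animals were adult Drd2-TRAP mice, which carry a Drd2-Cre transgene and a Cre-dependent, EGFP-tagged ribosomal protein L10a, so that the tag stays on in any cell in which Cre has ever acted and tagged ribosomes can be pulled down with their mRNA. Libraries came from 3 pools of fear-conditioned mice (replicates 2, 3 and 4) and 2 pools of control mice (replicates 6 and 7), each pool holding bilateral 1 mm punches from 3 animals collected 2 h after the session. The labels call the controls home cage animals and date the collection to extinction, whereas the study's text uses the home cage name in places and elsewhere describes tone exposure without shock, with collection after conditioning, so the controls are called control libraries here. Because a punch is cut around the CeA, the comparison asks how much RNA of neighbouring cortex and basolateral amygdala each pull-down held.

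The CeA is a subpallial nucleus of GABAergic neurons, and it lies beside the basolateral amygdala and cortical areas, whose projection neurons are glutamatergic and of pallial origin. Pallial projection neurons load glutamate into vesicles mainly with VGLUT1, the product of Slc17a7, while neurons of the thalamus, hypothalamus and medial amygdala rely more on VGLUT2, the product of Slc17a6. Their identity is set by basic helix-loop-helix factors of the NeuroD family, which bind E-box DNA, by the T-box factor Tbr1 and by the homeobox factors Emx1 and Cux2. Nrn1 encodes neuritin, a membrane-anchored protein regulated by neuronal activity that is abundant in, but not restricted to, these neurons.

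Values are counts per 1000000 of an effective library size (CPM), as deposited. Behind them were 19605318 to 27937520 reads on genes per library, so that 3 reads, the floor used for a gene with 0 reads, correspond to 0.10 to 0.158 CPM (counting error only). The 3 fear-conditioned libraries listed 159 to 349 genes at 0, while control replicate 6 listed 976 and control replicate 7 listed 2681. Each member had a mean of at least 1 CPM over the 5 libraries, so all 9 entered the comparison of 13560 genes with limma. In that comparison 0 genes (0%) passed an adjusted p of 0.05 with an absolute log2 fold change over 0.5, and none of the 9 members did, while 2280 genes had an unadjusted p under 0.05. Unadjusted, 3 of the 9 members were lower in fear-conditioned libraries at p under 0.05, against 7.32% of all genes, and 0 were higher, against 9.49%. In 4 of the 9 every fear-conditioned library lay below both control libraries, against 16.1% of all genes, and in 0 every one lay above, against 20.2%. The median log2 fold change of the 9 members was -1.21, and that of all genes tested was 0.08. Labels do not say how animals were allotted to pools, so p-values measure the spread between these pools.

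**Figure D1:**
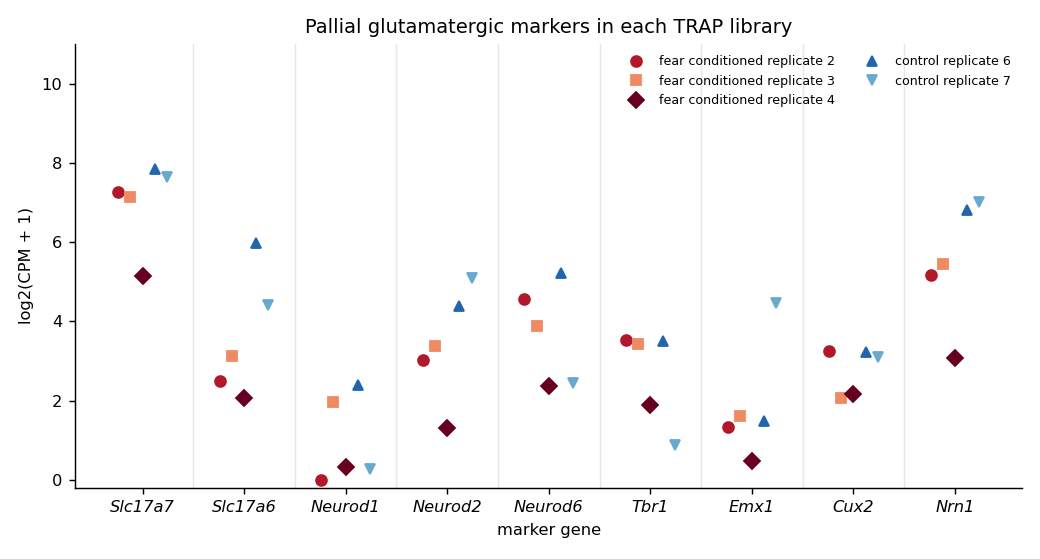
Level of each of the 9 marker genes (x axis) in each of the 5 libraries (y axis, log2 of CPM + 1), with red symbols for the 3 fear-conditioned libraries and blue symbols for the 2 control libraries. Fear-conditioned replicate 4 is the lowest of the 5 libraries for 6 of the 9 genes, and both control libraries lie above all fear-conditioned libraries for Slc17a7, Slc17a6, Neurod2 and Nrn1.

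Of the vesicular glutamate transporters, Slc17a7 (ENSMUSG00000070570) was the highest of the 9 members in every library. It had 152, 141 and 34.5 CPM in fear-conditioned replicates 2, 3 and 4, and 227 and 197 CPM in control replicates 6 and 7. The groups did not overlap, but fear-conditioned replicate 4 stood much farther below the other fear-conditioned libraries than these stood below the controls. Slc17a7 exceeded between 63.9% (fear-conditioned replicate 4) and 94.7% (control replicate 6) of the listed genes of a library. The mean was 109 ± 64.8 CPM (SD, n = 3) after fear conditioning and 212 ± 21.1 CPM (SD, n = 2) in controls, which is -1.21 on the log2 scale (standard error, SE, 0.65, adjusted p = 0.390 by limma with the Benjamini-Hochberg method). The exact permutation test on log2 values gave p = 0.3 (two-sided). As 0.1 is the smallest value that 10 splits can give, this test cannot place any gene under 0.05. Without fear-conditioned replicate 4 the log2 fold change was -0.53.

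Slc17a6 (ENSMUSG00000030500) had 4.65, 7.75 and 3.18 CPM in the fear-conditioned pools and 61.7 and 20.4 CPM in control replicates 6 and 7. All fear-conditioned libraries lay below both controls, which themselves differed 3.03-fold. The log2 fold change was -2.63 (SE 0.67, unadjusted p = 0.00696 and adjusted p = 0.200 by limma with the Benjamini-Hochberg method). Relative to 100 CPM of Slc17a7 there were 3.05, 5.51 and 9.21 CPM of Slc17a6 in the fear-conditioned libraries and 27.2 and 10.3 CPM in control replicates 6 and 7. Slc17a6 was therefore highest, in absolute and in relative terms, in control replicate 6. The same library held 22.5 CPM of Lhx9 (675 reads, against 0, 15 and 0 in the fear-conditioned libraries and 0 in control replicate 7) and 55.3 CPM of Calb2, against 4.37 to 11.3 CPM in the other 4 libraries. These belong to a list of 7 genes of regions rich in Slc17a6 that lie near the punch, of which 3 were in the table. The third, Tcf7l2, was highest in control replicate 7, with 54.1 CPM against 2.97 to 8.14 CPM elsewhere, and Otp, Sim1, Lhx5 and Shox2 were not among the genes of the table. The summed level of the 3 genes was 12.5 to 17.4 CPM in the fear-conditioned pools and 63.8 to 80.8 CPM in the controls, and the part of such neurons in the Slc17a6 level was not tested.

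Within the NeuroD family, Neurod2 separated the groups and its relatives did not. Neurod2 (ENSMUSG00000038255), which is kept on in mature pallial neurons, had 7.11, 9.41 and 1.49 CPM in the fear-conditioned pools and 20.0 and 33.0 CPM in the controls. Its log2 fold change was -2.17 (SE 0.76, unadjusted p = 0.0281 and adjusted p = 0.251 by limma with the Benjamini-Hochberg method). Neurod6 (ENSMUSG00000037984), also a factor of differentiated pallial neurons, had 22.7, 13.7 and 4.12 CPM in the fear-conditioned pools and 36.6 and 4.48 CPM in control replicates 6 and 7. The controls spanned almost the whole range of the fear-conditioned libraries, and the log2 fold change was -0.24 (SE 1.03). This value turned positive without fear-conditioned replicate 4 (0.38) and without control replicate 6 (1.14). Neurod1 (ENSMUSG00000034701), which acts mainly in differentiating neurons, was close to the limit of detection. It had 0, 70 and 5 reads in the fear-conditioned pools and 128 and 4 reads in control replicates 6 and 7, or 0, 2.92 and 0.248 CPM and 4.27 and 0.211 CPM. The 0 reads in fear-conditioned replicate 2 allow a level of up to 0.142 CPM. The highest library of each group, fear-conditioned replicate 3 and control replicate 6, had Neurod1 well above this floor. The -0.57 on the log2 scale (SE 0.91) therefore rested on control replicate 6, and it was -1.18 without fear-conditioned replicate 3.

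The transcription factors of cortical neurons gave no common direction. Tbr1 (ENSMUSG00000035033), the T-box factor of deep-layer and amygdala projection neurons, had 10.5, 9.74 and 2.73 CPM in the fear-conditioned pools and 10.3 and 0.844 CPM in control replicates 6 and 7. Control replicate 6 thus matched the upper fear-conditioned libraries while control replicate 7 had 16 reads, and the log2 fold change of 0.76 (SE 0.97) became -0.54 without control replicate 7. Emx1 (ENSMUSG00000033726), a homeobox factor of dorsal pallial progenitors and their progeny, showed the reverse order of the controls. It had 1.52, 2.04 and 0.397 CPM in the fear-conditioned pools, 1.80 CPM in control replicate 6 and 21.0 CPM in control replicate 7. Its log2 fold change of -1.83 (SE 0.97) therefore rested on control replicate 7, without which it was -0.35. Cux2 (ENSMUSG00000042589), a homeobox factor of upper cortical layers that some interneurons also use, had 8.53, 3.16 and 3.53 CPM in the fear-conditioned pools and 8.35 and 7.54 CPM in the controls. Fear-conditioned replicate 2 was at the level of the controls, and the log2 fold change was -0.66 (SE 0.62). Adjusted p values ranged from 0.388 for Emx1 to 0.709 for Tbr1 (limma with Benjamini-Hochberg adjustment).

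Nrn1 (ENSMUSG00000039114) had the highest level after Slc17a7, and its controls lay close together. It had 35.2, 42.9 and 7.5 CPM in the fear-conditioned pools and 111 and 128 CPM in the controls, which differed only 1.16-fold. The log2 fold change was -2.33 (SE 0.72, 95% confidence interval -4.08 to -0.59, unadjusted p = 0.0168 and adjusted p = 0.227 by limma with the Benjamini-Hochberg method). For Slc17a6, Neurod2 and Nrn1 the exact permutation test gave p = 0.1 (two-sided), its smallest possible value. Without fear-conditioned replicate 4 the mean of the controls was still 3.06-fold that of the remaining fear-conditioned libraries for Nrn1, 3.21-fold for Neurod2 and 6.63-fold for Slc17a6, but 1.45-fold for Slc17a7.

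Promoters are shown for the non-overlapping members that RefSeq's table held, as these are the genes whose levels separated the groups. Each is the 250 bases before the start site (GRCm38.p6, 5′ to 3′ on the gene's strand), with E-boxes, CANNTG, in capitals. E-boxes were searched because NeuroD factors bind them, and the motif reads the same on both strands. The windows are chr7:45163671-45163920 (plus strand) for Slc17a7, chr7:51621580-51621829 (plus strand) for the upstream start of Slc17a6 and chr11:98329646-98329895 (minus strand) for Neurod2.
Slc17a7: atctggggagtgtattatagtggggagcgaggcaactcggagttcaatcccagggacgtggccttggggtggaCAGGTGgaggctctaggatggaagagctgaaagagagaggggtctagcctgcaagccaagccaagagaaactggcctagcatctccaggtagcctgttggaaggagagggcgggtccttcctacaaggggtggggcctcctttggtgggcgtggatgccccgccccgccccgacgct
Slc17a6: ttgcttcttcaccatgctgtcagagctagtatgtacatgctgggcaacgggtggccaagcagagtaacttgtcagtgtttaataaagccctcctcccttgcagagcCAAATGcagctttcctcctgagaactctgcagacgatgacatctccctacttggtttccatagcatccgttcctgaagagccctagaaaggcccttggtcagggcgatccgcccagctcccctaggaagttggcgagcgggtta
Neurod2: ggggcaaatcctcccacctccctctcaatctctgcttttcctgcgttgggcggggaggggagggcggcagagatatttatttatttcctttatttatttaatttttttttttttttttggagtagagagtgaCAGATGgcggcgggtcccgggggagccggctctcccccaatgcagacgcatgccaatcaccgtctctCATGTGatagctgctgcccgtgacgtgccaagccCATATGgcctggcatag
Slc17a7 had 1 E-box, 177 bases before the start, Slc17a6 had 1, at 144 bases, and Neurod2 had 3, the first of them 118 bases before the start and of the form CAGATG. All 10 windows of the 8 members in the table, Cux2 and Slc17a6 having 2 starts each, held CANNTG, as did 66.2% of 32851 windows of the same length. CAGATG on either strand, a subset of CANNTG, was found in 3 of the 10 windows and in 14.4% of all windows. These matches describe the letters only, and binding was not measured.

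Divided by the deposited gene lengths, Slc17a7 had a mean level of 51.4 CPM per kilobase over the 5 libraries and Nrn1 30.0. Slc17a7 was above Nrn1, and Nrn1 above Neurod6 (7.58 CPM per kilobase), in 5 of 5 libraries. The next members, Slc17a6 (4.54) and Neurod2 (4.52), could not be ordered, since Slc17a6 was the higher in 2 of 5 libraries. Neurod2 was above Emx1 (2.45) in 5 of 5 libraries. Emx1 ranked above Tbr1 (1.24) by its mean but in only 1 of 5 libraries, control replicate 7. Tbr1 was above Cux2 (0.649) in 4 of 5 libraries, and Cux2 above Neurod1 (0.320) in 3 of 5.

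Within the fear-conditioned group, most members were low in the same library. In fear-conditioned replicate 4, 7 of the 9 members had less than 0.5 times the mean of replicates 2 and 3, whereas 2.37% of the 13523 genes compared did, a limit chosen after the values were seen. The ratio was 0.24 for Slc17a7, 0.18 for Neurod2, 0.23 for Neurod6, 0.27 for Tbr1, 0.22 for Emx1, 0.19 for Nrn1 and 0.17 for Neurod1, the last set by replicate 3 alone, as replicate 2 had 0 reads. It was 0.51 for Slc17a6 and 0.60 for Cux2, and its median over all genes was 0.98. Replicate 4 was the lowest of all 5 libraries in 6 of the 9 members, against 8.08% of the 13560 genes tested. For 6 genes of Drd2 neurons the same ratio had a median of 1.16 and a minimum of 1.01. The ratios of the GABAergic, oligodendrocyte, astrocyte and microglia genes examined ran from 0.97 to 2.08. Of the 3 genes of regions rich in Slc17a6, 2 were also below 0.5, Lhx9 at 0 and Calb2 at 0.42, while Tcf7l2 was at 1.94. The ratio of Lhx9 was set by replicate 3 alone, with 15 reads. Of 5 choroid plexus genes, 2 were also below 0.5, Ttr at 0.031 and Folr1 at 0.17, both set by the value in replicate 3. Within the same condition, the mean of replicates 2 and 3 was thus 4.24-fold replicate 4 for Slc17a7 and 5.21-fold for Nrn1. In a pull-down from pooled tissue, fewer cells of a type and less RNA per cell cannot be told apart.

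The proportions of the members to each other were examined relative to Slc17a7. Per 100 CPM of Slc17a7, Tbr1 had 6.92, 6.93 and 7.91 CPM in the fear-conditioned pools, although Slc17a7 itself differed more than 4-fold, and 4.51 and 0.428 CPM in control replicates 6 and 7. Neurod6 had 14.9, 9.71 and 11.9 CPM per 100 CPM of Slc17a7 in the fear-conditioned libraries and 16.1 and 2.27 CPM in the controls. For Emx1 these numbers were 0.998, 1.45 and 1.15 CPM, and 0.794 and 10.6 CPM. Tbr1 and Neurod6 were thus low relative to Slc17a7 in control replicate 7 and Emx1 was high there, while control replicate 6 lay near the fear-conditioned libraries in Neurod6 and Emx1. Control replicate 7 also listed 2681 genes at 0, against 976 in control replicate 6 and 159 to 349 in the fear-conditioned libraries. The part of this loss of genes in the ratios was not tested. Nrn1 was higher relative to Slc17a7 in both controls, with 48.7 and 65.0 CPM against 21.7 to 30.5 CPM, and so was Neurod2, with 8.80 and 16.7 CPM against 4.32 to 6.69 CPM. The controls were more than 2-fold apart in 5 of the 9 members, 4 of them higher in control replicate 6 and 1, Emx1, higher in control replicate 7. Slc17a6 and Cux2 kept no fixed proportion among the fear-conditioned libraries, Cux2 having 5.61, 2.25 and 10.2 CPM per 100 CPM of Slc17a7. These ratios were chosen after the values were seen, and no p is given for them.

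**Figure D2:**
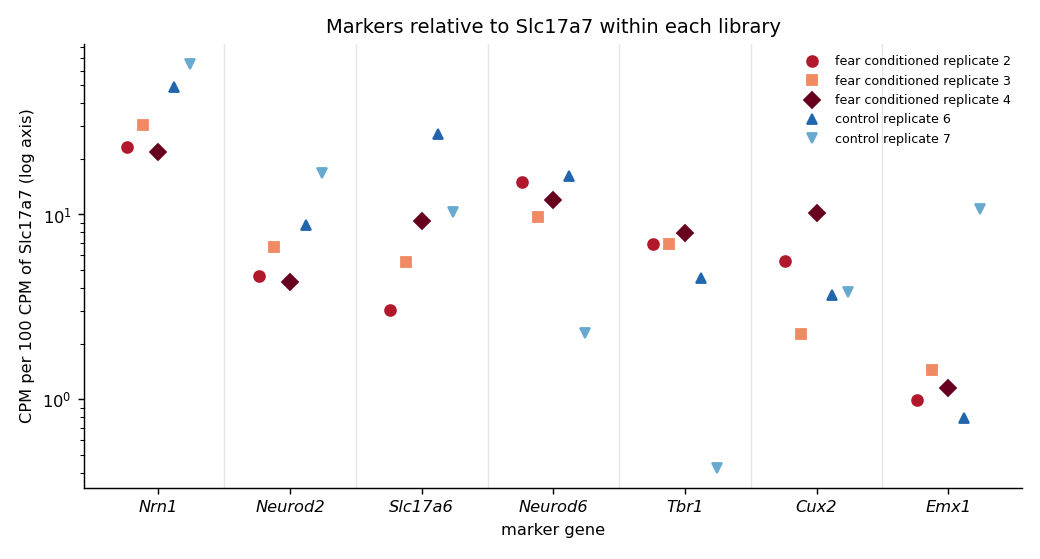
CPM of 7 marker genes per 100 CPM of Slc17a7 in the same library (log axis), with 1 symbol for each of the 5 libraries. Tbr1 stays between 6.92 and 7.91 in the 3 fear-conditioned libraries and drops to 0.428 in control replicate 7, where Emx1 reaches 10.6. Control replicate 7 listed 2681 genes at 0, the most of the 5 libraries.

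Summed over the 9 members, the level was 242, 232 and 57.7 CPM in the fear-conditioned pools and 481 and 413 CPM in the controls, with means of 177 ± 104 CPM (SD, n = 3) and 447 ± 48.0 CPM (SD, n = 2). Both controls lay above all fear-conditioned libraries. Slc17a7 made up 62.8%, 60.6% and 59.8% of this sum in the fear-conditioned pools, against 47.3% and 47.8% in the controls. The widest 95% Wilson interval, in fear-conditioned replicate 4 with 1162 reads on the 9 genes, ran from 57.0% to 62.6%, which covers counting error only and not the spread between pools. Without Slc17a7 the sum was 90.2, 91.6 and 23.2 CPM in the fear-conditioned pools and 254 and 216 CPM in controls. The gap between these sums was thus wider, and Nrn1 held 111 and 128 CPM of the control sums. The ratio of the control mean to the fear-conditioned mean was 1.95 for Slc17a7. It was larger for Nrn1 (4.18), Neurod2 (4.41), Slc17a6 (7.91), Emx1 (8.64) and Neurod1 (2.13), but smaller for Neurod6 (1.52), Cux2 (1.57) and Tbr1 (0.72). Per 100 CPM of the GABAergic genes Gad1, Gad2 and Slc32a1, the members had 18.9, 16.6 and 4.05 CPM in the fear-conditioned pools and 34.4 and 22.6 CPM in the controls. Per 100 CPM of 6 genes of Drd2 neurons (Drd2, Adora2a, Penk, Gpr6, Ppp1r1b and Rgs9), they had 1.17, 1.22 and 0.278 CPM against 6.32 and 3.45 CPM. By either scale the pull-downs of the controls held the larger share of these markers. The scales themselves moved, as the mean sum of the Drd2 neuron genes was 9782 CPM in controls and 20205 CPM in fear-conditioned pools. Slc32a1, a part of the GABAergic scale, had 7.41 and 185 CPM in control replicates 6 and 7. The log2 ratio of the mean sums of the members, -1.33, remained below 0 with each library left out (-1.62 to -0.91).

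Markers of other cells also differed between the groups. All 6 Drd2 neuron genes were higher in every fear-conditioned library than in both controls, as were 20.2% of all genes, with sums of 19099 to 20788 CPM against 7609 to 11954 CPM in controls, and none was at 0 in any library. The 5 choroid plexus genes summed to 57.7 to 110 CPM in the fear-conditioned pools and 1004 to 1415 CPM in controls, mostly through Ttr, and Folr1 and Kcnj13 were at 0 in fear-conditioned replicate 2. The 5 oligodendrocyte genes summed to 526 to 1230 CPM and 1414 to 3543 CPM, and the 5 astrocyte genes to 206 to 247 CPM and 473 to 562 CPM. The 5 microglia genes overlapped, at 46.2 to 83.1 CPM and 72.8 to 101 CPM, and the 3 GABAergic genes had 1283 to 1425 CPM and 1399 to 1824 CPM. No gene of these last 4 lists was at 0 in any library. By the sign of the log2 fold change of CPM + 1, lower after fear conditioning were 5 of 5 oligodendrocyte, 4 of 5 astrocyte (all but Aldh1l1, whose mean CPM was also lower) and 4 of 5 choroid plexus genes, beside 8 of the 9 pallial members, and 0 of 6 Drd2 neuron genes. The median log2 fold change of all genes tested was 0.08. In 3 of 5 oligodendrocyte, astrocyte and choroid plexus genes each, all fear-conditioned libraries lay below both controls, against 16.1% of all genes. The part of these cells in the result was not tested. In fear-conditioned replicate 4, where most members were low, the Drd2 neuron genes summed to 20728 CPM, inside the range of that group. Penk held 14950 CPM of this sum. That library had the highest sums of oligodendrocyte, astrocyte and microglia genes of its group. The astrocyte sum was 247 CPM, close to the 241 CPM of replicate 2.

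**Figure D3:**
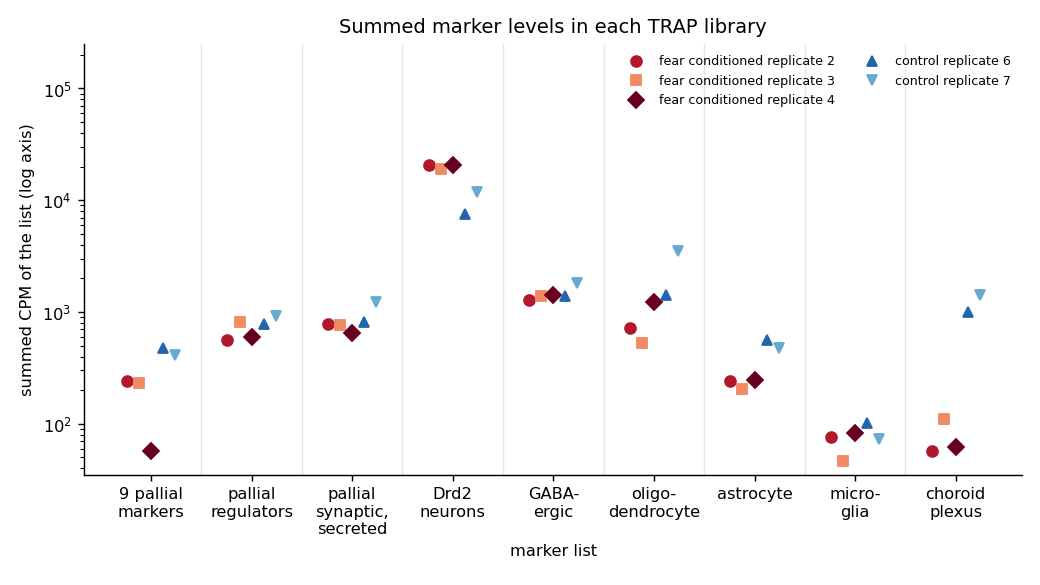
Summed CPM of 9 marker lists (log axis) in each of the 5 libraries. The 9 pallial markers drop to 57.7 CPM in fear-conditioned replicate 4, below all other points of that list, and lie highest in the 2 controls.

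Other genes assigned to the pallial lineage were examined as lists. How far these genes are restricted to pallial neurons was not tested. Of 17 regulators, 15 were in the table and 14 were tested, and none passed. In 3 every fear-conditioned library lay below both controls and in 4 above, against 16.1% and 20.2% of all genes, and the median log2 fold change was -0.37. The most abundant were Mef2c, a factor of synaptic activity, Bcl11a, a zinc finger factor, and Cux1, a relative of Cux2. Mef2c had 149, 348 and 187 CPM in the fear-conditioned pools and 353 and 296 CPM in the controls. Bcl11a had 107, 101 and 98.9 CPM against 79.2 and 258 CPM, and Cux1 had 83.6, 108 and 91.4 CPM against 95.6 and 52.3 CPM. For these 3 genes the groups overlapped. On the log2(CPM + 1) scale the largest differences in this list were those of Zfpm2, Lhx2 and Nr4a2. Zfpm2, a cofactor of GATA factors, had 3.08, 1.37 and 1.94 CPM in the fear-conditioned pools and 6.58 and 34.8 CPM in the controls (log2 fold change -2.43, SE 0.80). Lhx2, a LIM homeobox factor of the cortical primordium, had the opposite direction, with 14.2, 11.1 and 8.79 CPM against 5.18 CPM and 0 (log2 fold change 2.29, SE 0.87). Nr4a2, a nuclear receptor of the claustrum and deep cortex that is also induced by activity, had 11.7, 40.9 and 4.97 CPM against 1.67 and 2.95 CPM (log2 fold change 2.18, SE 0.90). The log2 fold change of Zfpm2 was -1.31 without control replicate 7 and that of Lhx2 0.98, against -3.55 and 3.6 without control replicate 6, and that of Nr4a2 was 1.42 without fear-conditioned replicate 3. Adjusted p values were between 0.237 and 0.298 for these 3 genes (limma with Benjamini-Hochberg adjustment). The cortical factor Emx2, named after its values were seen, had 0 reads in both control libraries and 1.33 to 3.18 CPM in the fear-conditioned pools. The mean of these pools was 16.8-fold a floor of 3 reads per library, which covers counting error only.

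Of 14 synaptic and secreted genes listed for pallial neurons, though not tested for being restricted to them, 12 were in the table and tested, and none passed. In 4 every fear-conditioned library lay below both controls and in 3 above, against 16.1% and 20.2% of all genes, with a median log2 fold change of -0.68. The abundant genes were Itpka, a kinase of inositol trisphosphate, Thy1, a surface glycoprotein, and Sv2b, a synaptic vesicle protein. Itpka had 338, 306 and 300.0 CPM in the fear-conditioned pools and 203 and 190.0 CPM in the controls, and did not overlap (log2 fold change 0.67, SE 0.20). Thy1 had 121, 66.2 and 104 CPM against 76.0 and 577 CPM, a difference that rested on control replicate 7. Sv2b had 111, 158 and 98.1 CPM against 200.1 and 69.9 CPM, and a log2 fold change of 0.02 (SE 0.47). Grp, gastrin-releasing peptide, had 1.23, 1.42 and 0.149 CPM in the fear-conditioned pools and 8.58 and 13.1 CPM in the controls (log2 fold change -2.66, SE 0.62, adjusted p = 0.197 by limma with the Benjamini-Hochberg method). Slc17a8 encodes the vesicular transporter VGLUT3 of a few scattered cell groups. It had 2.09, 4.12 and 10.3 CPM in the fear-conditioned pools and 0 reads in both controls. The mean of these pools was 42.5-fold a floor of 3 reads per library, which covers counting error only. The controls listed 976 and 2681 genes at 0, against 159 to 349 in the fear-conditioned libraries, and the cause of these 0 reads was not tested. The transporter genes thus did not share 1 direction, as Slc17a7 and Slc17a6 were lower and Slc17a8 higher in every fear-conditioned library. Rspo2, a Wnt agonist, had 4.88, 2.33 and 0.943 CPM against 0.167 CPM and 0. Summed over the regulators the groups overlapped, with 559 to 818 CPM against 786 to 926 CPM. The sums of the synaptic and secreted genes, 648 to 785 CPM against 813 to 1225 CPM, did not overlap, and the mean was 1.39-fold higher in controls. RNA of other cells, Drd2 neurons among them, may be part of the sums of both lists, and its part was not tested.

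**Figure D4:**
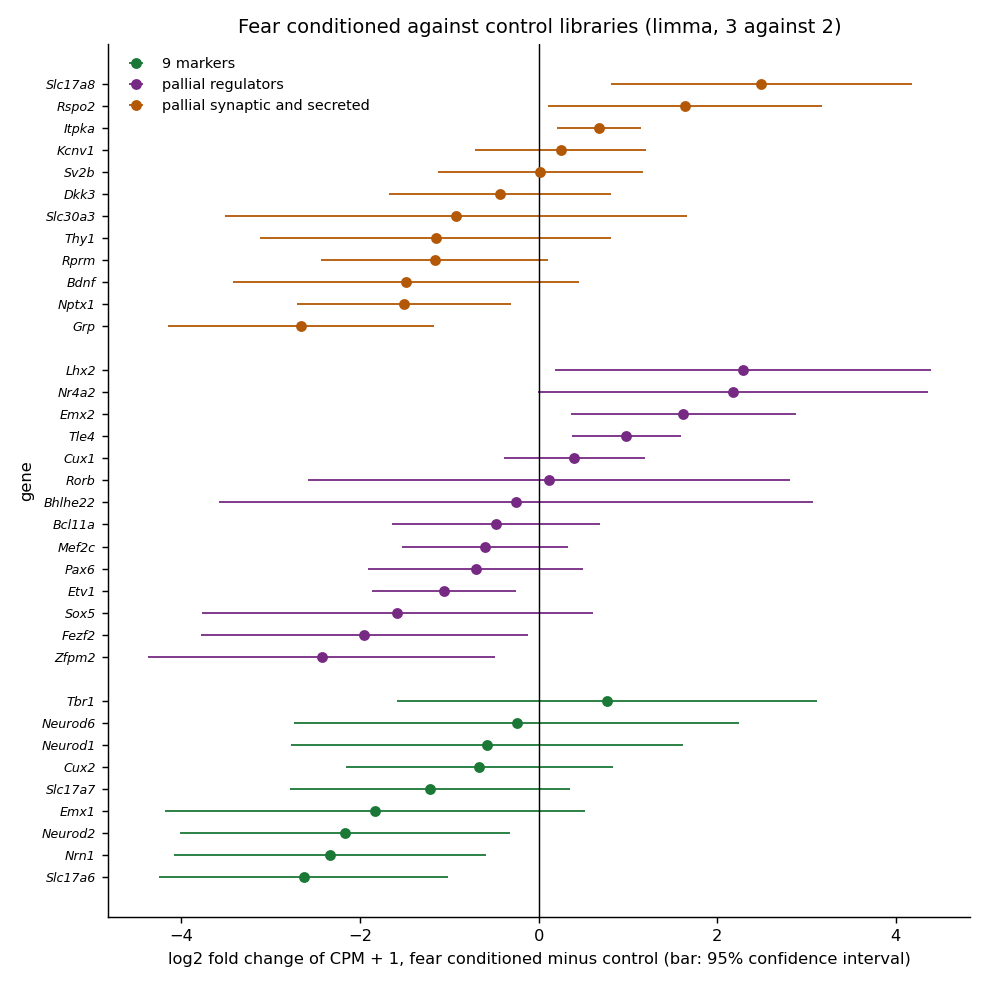
log2 fold change of CPM + 1 (fear-conditioned minus control, limma) with its 95% confidence interval for the 9 markers, 14 pallial regulators and 12 synaptic and secreted genes. Tbr1 is the 1 marker of 9 above 0, and the other lists hold genes on both sides, from -2.66 for Grp to 2.49 for Slc17a8.

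The genes of these lists were not alike in fear-conditioned replicate 4. Bhlhe22, Nr4a2, Fezf2 and Pax6 among the regulators, and Grp, Bdnf, Slc30a3, Rspo2 and Nptx1 among the others, had less than 0.5 times the mean of fear-conditioned replicates 2 and 3. Bhlhe22, a basic helix-loop-helix factor, had 4.03, 10.7 and 0.943 CPM. Slc30a3, the zinc transporter of glutamatergic synaptic vesicles, had 21.7, 21.9 and 4.22 CPM, and Bdnf, a neurotrophin made by pallial neurons, had 11.9, 8.83 and 1.99 CPM. They were 4 of the 14 regulators and 5 of the 12 synaptic and secreted genes, against 2.37% of all genes, and the median ratio was 0.81 and 0.58 in these lists. Cux1, Bcl11a, Itpka, Kcnv1 and Thy1 had ratios between 0.93 and 1.11, while Slc17a8 (3.31), Rorb (1.52), Tle4 (1.24) and Etv1 (1.16) were higher in replicate 4. These genes were named after their values were seen.

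The 5 genes nearest to Slc17a7 in their profile over the 5 libraries were C1ql3, Cck, Scml4, Crhbp and Ipcef1. Nearness was the root mean square difference of mean-centred log2(CPM + 1) values, and it ran from 0.261 for C1ql3 to 0.336 for Ipcef1. C1ql3 had 25.2, 13.2 and 3.62 CPM in the fear-conditioned pools and 32.8 and 23.4 CPM in the controls. Cck, the gene of cholecystokinin, had 57.8, 32.7 and 14.7 CPM against 76.0 and 67.1 CPM. Both were lowest in fear-conditioned replicate 4, as Slc17a7 was. The genes nearest to the other members were Gcnt1 for Slc17a6 (0.291), Gsn for Neurod1 (0.222), Lefty2 for Neurod6 (0.287), Dio3 for Tbr1 (0.197), Gpc4 for Emx1 (0.203) and Tnnt2 for Cux2 (0.113). Lefty2 and Dio3 were at 0 in control replicate 7, which listed 2681 genes at 0. Pter was the nearest for both Neurod2 (0.362) and Nrn1 (0.380). Between members, Neurod2 and Nrn1 were the nearest pair (0.216), nearer to each other than either was to the nearest gene outside the 9, and Neurod6 and Tbr1 came next (0.541). With 13560 genes and 5 libraries, near profiles are a description.

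On the reads recovered from the values, the quasi-likelihood test of edgeR gave no call among 14489 genes (3 members had an unadjusted p under 0.05, as did 2404 genes in all), and DESeq2 with the same cutoffs called 2 of the 9 members, both lower, against 4.42% of genes called lower. These were Slc17a6 (log2 fold change -3.0, adjusted p = 0.00146) and Nrn1 (log2 fold change -2.11, adjusted p = 0.0411), while it called 8.94% of genes in either direction and its adjusted p was 0.102 for Neurod2 and 0.373 for Slc17a7. With 1 control library left out, limma takes the spread from the fear-conditioned libraries alone and assumes it for the lone control. Without control replicate 6 it called 5 members, Slc17a6, Neurod2, Emx1 and Nrn1 lower and Tbr1 higher, but also 60.5% of all genes. Without control replicate 7 it called 1 member, Slc17a6, and 27.5% of all genes. The median log2 fold change of the members was -0.53 without fear-conditioned replicate 4.

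**Figure D5:**
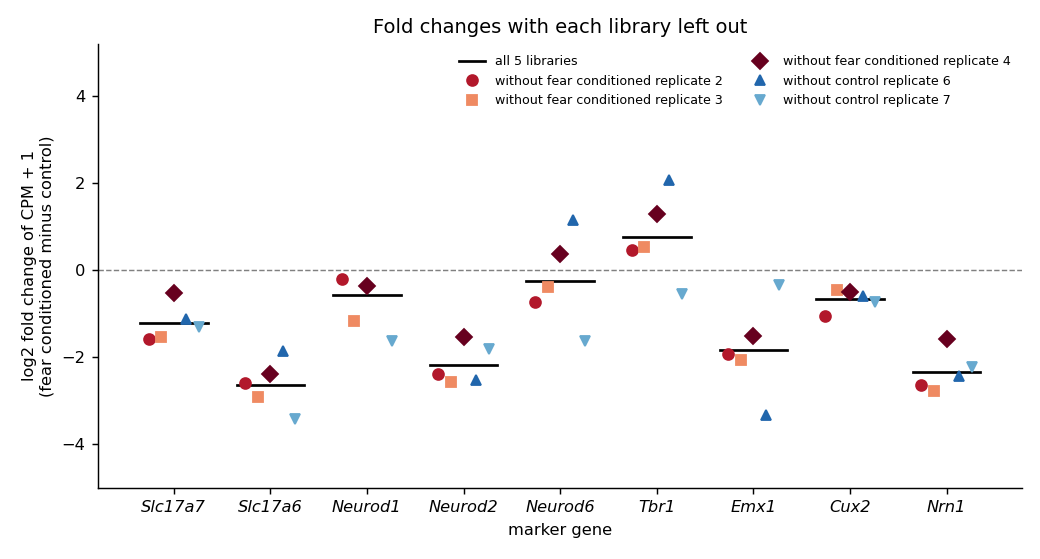
log2 fold change of each marker with all 5 libraries (black line) and with each library left out (coloured symbols; limma, CPM + 1, fear-conditioned minus control). Slc17a7, Slc17a6, Neurod2, Emx1, Cux2 and Nrn1 stay below 0 throughout, Neurod6 and Tbr1 cross 0, and Neurod1 without control replicate 6 has no symbol because its mean then fell under 1 CPM.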

How the data were processed

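Ribosome-bound RNA of 5 pools of Drd2-TRAP mice was measured (3 fear conditioned, 2 control, grouped by the labels). The authors deposited a normalized signal per gene and library, in counts per 1000000 of an effective library size, with a gene length, after analysis with software named Tuxedo DESeq. The submitters' processing notes name build mm8. Aligner, counter, versions and use of strand are not given in the sources used here. An annotated gene overlaps Slc17a7, Slc17a6, Cux2 and Nrn1, so their reads may include some of that gene. The table lists genes above 1 in at least 1 library. Dividing by a library's smallest non-zero value gave whole reads for 100% of values (tolerance 0.01). Depth was 19605318 to 27937520 reads on genes.

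Groups were compared with limma 3.58.1 (trend, two-sided, Benjamini-Hochberg) on log2(value + 1), keeping genes that averaged at least 1, with the study's cutoffs of 0.05 and 0.5. This scale understates the changes of low genes. Alternatives were a pseudocount of 0.1, other filters, quantile normalization, each library left out, and edgeR 4.0.16 and DESeq2 1.42.0 on the recovered reads. All fits were run on simulated reads with large changes and the same dispersion for every gene. This checked the code and not the performance on data with a spread such as this. The genes named were the 9 members, the 3 most abundant and 3 most different genes of each pallial list, and genes nearest in profile. Members and lists were chosen with earlier results of these data known. A few items of these lists are not reported here, and no list value includes them. R 4.3.3 and Python 3.11.15 were used.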

Additional observations from a re-analysis of the deposited data

How the results depend on the processing

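None of the 9 markers passed both cutoffs with a pseudocount of 0.1, no filter, a filter of 1 CPM in every library (which dropped Neurod1, Tbr1 and Emx1), quantile normalization or edgeR's quasi-likelihood test, with 3 at an unadjusted p under 0.05 in each. Over all genes, 2280 of 13560 had such a p in the main fit and 2404 of 14489 with edgeR. The shares of all genes in the other settings are not given. DESeq2 on the recovered reads called 2 markers, 5 pallial regulators and 4 synaptic and secreted genes, and 8.94% of all genes, none of which limma called. With 1 library left out, the numbers called ranged from 0 to 5 markers, 0 to 10 regulators and 0 to 8 synaptic and secreted genes, with calls arising only where a control library was left out (60.5% of all genes called without control replicate 6 and 27.5% without control replicate 7). The median log2 fold change of the markers then ranged from -1.63 to -0.53, the latter without fear-conditioned replicate 4. Some log2 fold changes changed sign. Neurod6 became 0.38 without fear-conditioned replicate 4 and 1.14 without control replicate 6. Without control replicate 7, Tbr1 became -0.54, Bcl11a 0.37, Cux1 -0.0288, Thy1 0.30 and Sv2b -0.74, whereas without control replicate 6 they were 2.07, -1.32, 0.83, -2.61 and 0.77. Sv2b was also -0.18 without fear-conditioned replicate 3, -0.12 with edgeR and -0.16 with DESeq2. The cause was not tested. No paired analysis was possible because the groups share no replicate numbers. No single library was tested as outlying, and levels under 3 reads could not be told from 0.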
